A study of Homo sapiens with 9 samples.

Results

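RNA-seq libraries of A549 cells were compared, 3 from cells with a hairpin labelled shHES1 and 3 from cells with the control hairpin shCtrl, 6 of the 9 libraries in the series. A549 is a human lung adenocarcinoma line. A short hairpin RNA (shRNA) is cut by the cell to a guide RNA that lowers transcripts it pairs with. All genes with enough counts were used, 16903 of the 60664 listed, and every one was tested in a single fit that also held the 3 shHES4 libraries. All 9 libraries are from the same line with a hairpin. The labels name no drug, time after hairpin delivery, clone or number of separate cultures. The p-values therefore reflect the spread between these libraries alone, which may be technical. The labels give neither the hairpin sequences nor whether a group is a pool or 1 clone. The question the comparison addresses is which transcripts differ when a hairpin against HES1 is present.

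HES1 is a basic helix-loop-helix repressor and a target of Notch signalling that also represses its own gene. It recruits TLE corepressors to short promoter elements and is known for holding progenitor cells of the lung and nervous system back from neuroendocrine and neuronal differentiation. HES4 is a relative with the same kind of DNA-binding domain.

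Total counts ranged from 23.9 M to 27.6 M (M, 1000000 counts) over the 6 libraries, with 6.23 to 7.16% of them in mitochondrial genes. Values are CPM, counts per 1000000 counts of a library after TMM scaling, means are given ± SD of 3 libraries, and log2 fold changes (shHES1 minus shCtrl) are given ± the standard error of the edgeR fit. A gene was called at a Benjamini-Hochberg adjusted p under 0.05. shCtrl replicate 3 stood apart from the other shCtrl libraries. Its counts differed from theirs with a chi-square per degree of freedom of 6.78 and 5.06, against 2.36 to 2.48 for every other pair within a group and 8.34 to 9.96 between the groups. Each gene named below as changed kept its call and direction in every alternative setting that could test it (12 to 14 per gene), including each library left out in turn, unless the sentence says otherwise. The naming rule also required shHES1 and shCtrl ranges that did not overlap, so such separation of a named gene was set by the choice. The epithelial and A549 markers, which include the reductases AKR1B10 and AKR1C1, were present. They had a summed level of 8598 to 8662 CPM in shCtrl and 7568 to 7754 CPM in shHES1. CD3E and TYROBP of the leukocyte markers were at 0 in all 6 libraries. VWF and CDH5 (endothelial), DCN and PDGFRA (fibroblast) and HBB (erythroid) stayed under 1 CPM. In bulk RNA, fewer cells of a type and less RNA per cell cannot be told apart.

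The labelled target was not lower. HES1 stood at 6.99, 6.55 and 7.17 CPM in shCtrl and 9.11, 6.4 and 8.32 CPM in shHES1, so the groups overlapped (log2 fold change 0.20 ± 0.12, edgeR adjusted p = 0.345). These RNA counts do not measure HES1 protein, and the direction of every result below is that of libraries labelled shHES1. HES4, the target of the other hairpin, was lower in shHES1, at 21.3, 25.4 and 27.7 CPM in shCtrl and 18.3, 15.2 and 15.7 CPM in shHES1 (log2 fold change -0.59 ± 0.1, edgeR adjusted p = 0.000760). In the shHES4 libraries it stood at 20.4, 17.1 and 16.6 CPM, and the test of shHES1 against shHES4 did not separate the groups (edgeR adjusted p = 0.456). Of the relatives, HES6, HES7, HEY1 and HEYL were not called, with log2 fold changes of -0.30 ± 0.13, 0.56 ± 0.29, 0.22 ± 0.2 and 0.06 ± 0.13.

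A few genes had counts in shCtrl and nearly none, or for PRDX2 far fewer, in both the shHES1 and the shHES4 group. IRS4, an insulin receptor substrate known for its high level in the HEK293 line, had 126, 117 and 107 counts in shCtrl, 0, 4 and 0 in shHES1 and 0, 1 and 1 in shHES4. CDKN2A, which encodes p16 and is known to be deleted in A549, had 13, 27 and 21 counts in shCtrl, 1, 0 and 3 in shHES1 and 0, 1 and 0 in shHES4. PRDX2, a peroxiredoxin, had 18, 21 and 15 counts in shCtrl, 3, 2 and 4 in shHES1 and 4, 4 and 3 in shHES4. IRS4 reached 4.73 ± 0.246 CPM in shCtrl, and all 3 genes separate the shCtrl libraries from the 6 others. PRDX2 was named after its values were seen. Whether other RNA in the shCtrl libraries plays a part in the other differences was not tested. The comparison with shHES4, which uses the shCtrl libraries only in the shared scaling and spread of the fit, is given beside several genes below.

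Changes were many and mostly small, with rises larger than falls. The edgeR test called 1644 genes, 9.73% of those tested, of which 887 (5.25%) were higher and 757 (4.48%) lower in shHES1. Scaling to total counts in place of TMM gave 1174 higher among 1723 called. Without shHES1 replicate 2 the test called 1084 genes, 476 of them lower, and without shHES1 replicate 3 it called 499 lower. The median fold among called genes was 1.24 for rises and 1.17 for falls, and the 90th percentile was 2.03 for rises and 1.48 for falls. At least 1.5-fold separated the groups for 219 called rises and 66 called falls, and at least 3-fold for 25 rises and 10 falls. When the test itself asked for a log2 change beyond 0.32 (glmTreat, edgeR), 180 genes passed (1.06%), 130 higher and 50 lower. Beyond 1.5-fold 48 passed, 40 higher and 8 lower. The median log2 fold change over all tested genes was -0.003, with the middle 50% between -0.093 and 0.106.

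The direction of calls differed with level, counted in CPM and not adjusted for gene length. Between 1 and 5 CPM, 112 of 2919 tested genes were called higher and 31 lower. Between 5 and 20 CPM the calls were 220 higher and 115 lower of 3540, and between 20 and 100 CPM they were 362 and 353 of 5981. From 100 to 500 CPM, 153 were higher and 201 lower of 1850. Above 500 CPM only 7 of 218 genes were higher while 50 (22.9%) were lower, with a median fold of 1.11 among those called. With scaling to total counts the top level still had 13 higher and 40 lower, but the order at 100 to 500 CPM turned, to 228 higher and 136 lower. Protein-coding genes were called in 11.5% of 13856 cases, 856 higher and 732 lower, and lincRNA genes in 1.99% of 753. Shares over all genes, used below beside gene lists, include the rarely called noncoding genes.

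**Figure D1:**
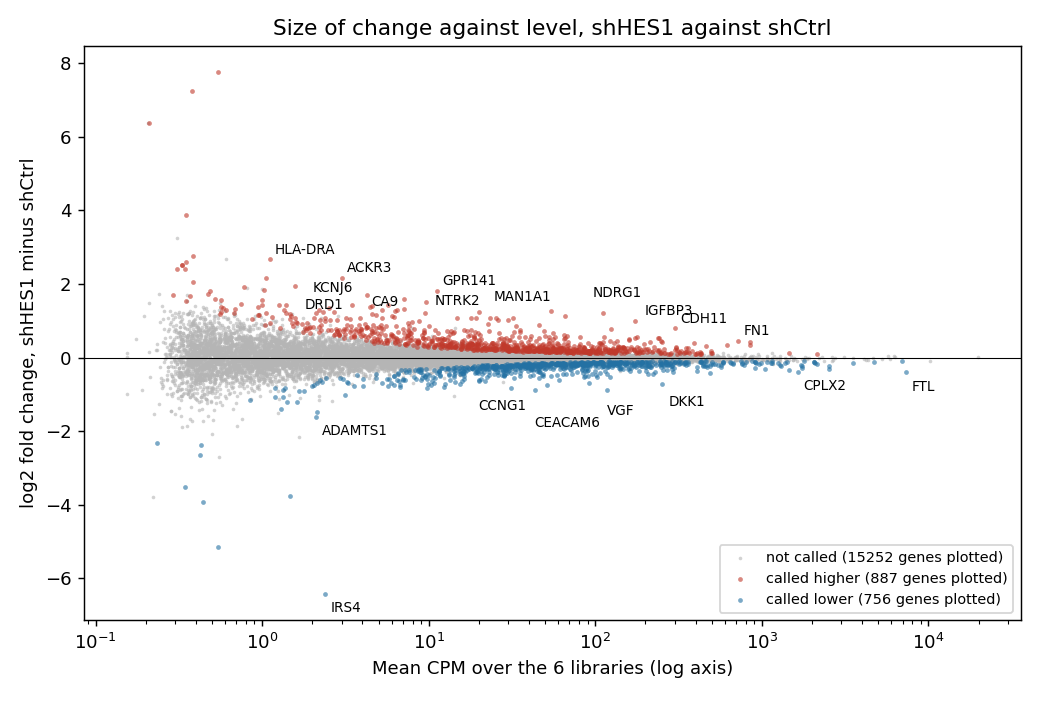
Log2 fold change (shHES1 minus shCtrl, y axis) of each tested gene against its mean CPM over the 6 libraries (log x axis); red points are called higher, blue points called lower and grey points not called. Rises of at least 2-fold lie mainly among genes of low and middle level, while the calls at the right edge are mostly small falls, 50 lower against 7 higher above 500 CPM.

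The largest rises among genes averaging at least 5 CPM included receptors and glycan or matrix enzymes. GPR141, an orphan G protein-coupled receptor, stood at 4.9, 4.22 and 5.71 CPM in shCtrl and 17.7, 16.8 and 17.5 CPM in shHES1, a 3.51-fold rise (log2 fold change 1.81 ± 0.11, edgeR adjusted p = 7.29e-09). The shHES4 libraries, at 3.67, 3.86 and 4.43 CPM, lay near shCtrl, and the 3 shHES1 libraries were above all 6 others. Over all tested genes the shCtrl and shHES1 ranges did not overlap in 27.6%. NTRK2, which binds the neurotrophin BDNF, went from 5.58, 4.26 and 5.12 to 13.6, 14.9 and 14.4 CPM (log2 fold change 1.51 ± 0.11, edgeR adjusted p = 1.01e-07). CA9, a membrane carbonic anhydrase used as a marker of low oxygen, went from 3.72, 2.91 and 3.87 to 10.8, 9.94 and 11.1 CPM (log2 fold change 1.6 ± 0.12), and shHES4 was at 3.58, 3.51 and 3.81 CPM. IL7R, the interleukin-7 receptor chain, went from 3.15, 4.31 and 3.75 to 9, 8.94 and 9.6 CPM (log2 fold change 1.3 ± 0.12). MAN1A1, the Golgi mannosidase that trims N-glycans, rose from 32.2, 34.1 and 30.2 to 77.2, 78.3 and 74.6 CPM with shHES4 at 32.9, 32.4 and 33.6 CPM. Its groups were separated by many times their spread (2.38-fold, edgeR adjusted p = 2.66e-11).

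Among rises of genes averaging at least 100 CPM, NDRG1, a gene induced by stress and low oxygen, had the largest fold. It stood at 65, 67 and 72 CPM in shCtrl, 162, 156 and 153 CPM in shHES1 and 55.9, 55.9 and 59.2 CPM in shHES4, and the shHES1 libraries were above all 6 others. IGFBP3, a carrier of insulin-like growth factors, rose from 116 ± 11.3 to 232 ± 6.9 CPM (log2 fold change 1.00 ± 0.05). CDH11, a mesenchymal cadherin, rose from 210, 219 and 229 to 379.8, 381 and 379.8 CPM and stood at 152, 152 and 149 CPM in shHES4, so that the hairpins lay on opposite sides of the control. SLC1A3, a glutamate transporter, had the same order, at 91.6 ± 1.72 CPM in shCtrl, 156 ± 1.34 CPM in shHES1 and 62.1 ± 0.905 CPM in shHES4. The edgeR test of shHES1 against shHES4 gave log2 differences of 1.33 ± 0.03 for CDH11 and 1.33 ± 0.03 for SLC1A3 (adjusted p = 6.71e-14 and 6.71e-14). PARD3, a cell polarity scaffold, rose by 1.45-fold and HPGD, which breaks down prostaglandins, by 1.46-fold.

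Other rises differed in where shHES4 stood. DPYSL3, a cytoskeletal protein of growing axons, rose from 18.5, 24.3 and 18.9 to 45.6, 42.7 and 42 CPM, and EPB41L3, a membrane skeleton adaptor, from 3.46, 4.22 and 3.71 to 8.82, 7.67 and 8.2 CPM. Both fell in shHES4, with log2 fold changes of -0.44 ± 0.09 and -0.85 ± 0.16. ANGPTL4, an inhibitor of lipoprotein lipase, rose from 31.6, 33.4 and 32.6 to 59.6, 58.6 and 60.7 CPM, and EGLN3, a prolyl hydroxylase that senses oxygen, from 21.3, 18.8 and 18.9 to 38.1, 39.3 and 42.7 CPM. TGFB2, a TGF-beta ligand, rose by 1.47-fold, RASGRF2, an exchange factor for Ras, by 2.11-fold, and SHROOM2, an apical actin organiser, by 2.11-fold. S100A9, a subunit of calprotectin, rose from 10.3, 11.9 and 12.8 to 24.7, 22.8 and 25.5 CPM, and shHES4 lay between at 16.2, 16.6 and 15.9 CPM. SERPINB3, a squamous serpin with a near-identical neighbour that may share its reads, rose by 2.09-fold. SLC7A8, an amino acid exchanger, and AFAP1L2, an actin-associated adaptor, had log2 fold changes of 0.99 ± 0.12 and 0.98 ± 0.12.

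Genes of 1 to 5 CPM changed by larger folds but on few counts. ACKR3, a scavenging receptor for CXCL12, stood at 1.22, 1.1 and 0.958 CPM in shCtrl and 4.63, 5.12 and 5.01 CPM in shHES1, a log2 fold change of 2.16 ± 0.19. KCNJ6, an inward rectifier potassium channel, went from 1.82, 2.41 and 1.79 to 5.89, 7.55 and 5.98 CPM, and DRD1, a dopamine receptor, from 1.82, 1.73 and 2.08 to 5.31, 5.55 and 4.25 CPM. Both lay near shCtrl in shHES4 (log2 fold changes against shCtrl of -0.05 ± 0.20 and 0.06 ± 0.18). IGFBP5, another IGF carrier, had 0.114, 0.802 and 0.250 CPM in shCtrl and 1.48, 2.04 and 1.62 CPM in shHES1, and PRUNE2 rose from 0.655 ± 0.179 to 2.51 ± 0.670 CPM. HS3ST3B1, a heparan sulfate sulfotransferase, went from 2.5 ± 0.262 to 6.4 ± 0.413 CPM. SLC6A14, an amino acid transporter, rose from 0.418, 0.507 and 0.417 to 1.59, 1.58 and 1.62 CPM. Here shHES4 was also high, at 2.48, 1.36 and 1.35 CPM, and the edgeR test did not separate the hairpins (adjusted p = 0.835).

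**Figure D2:**
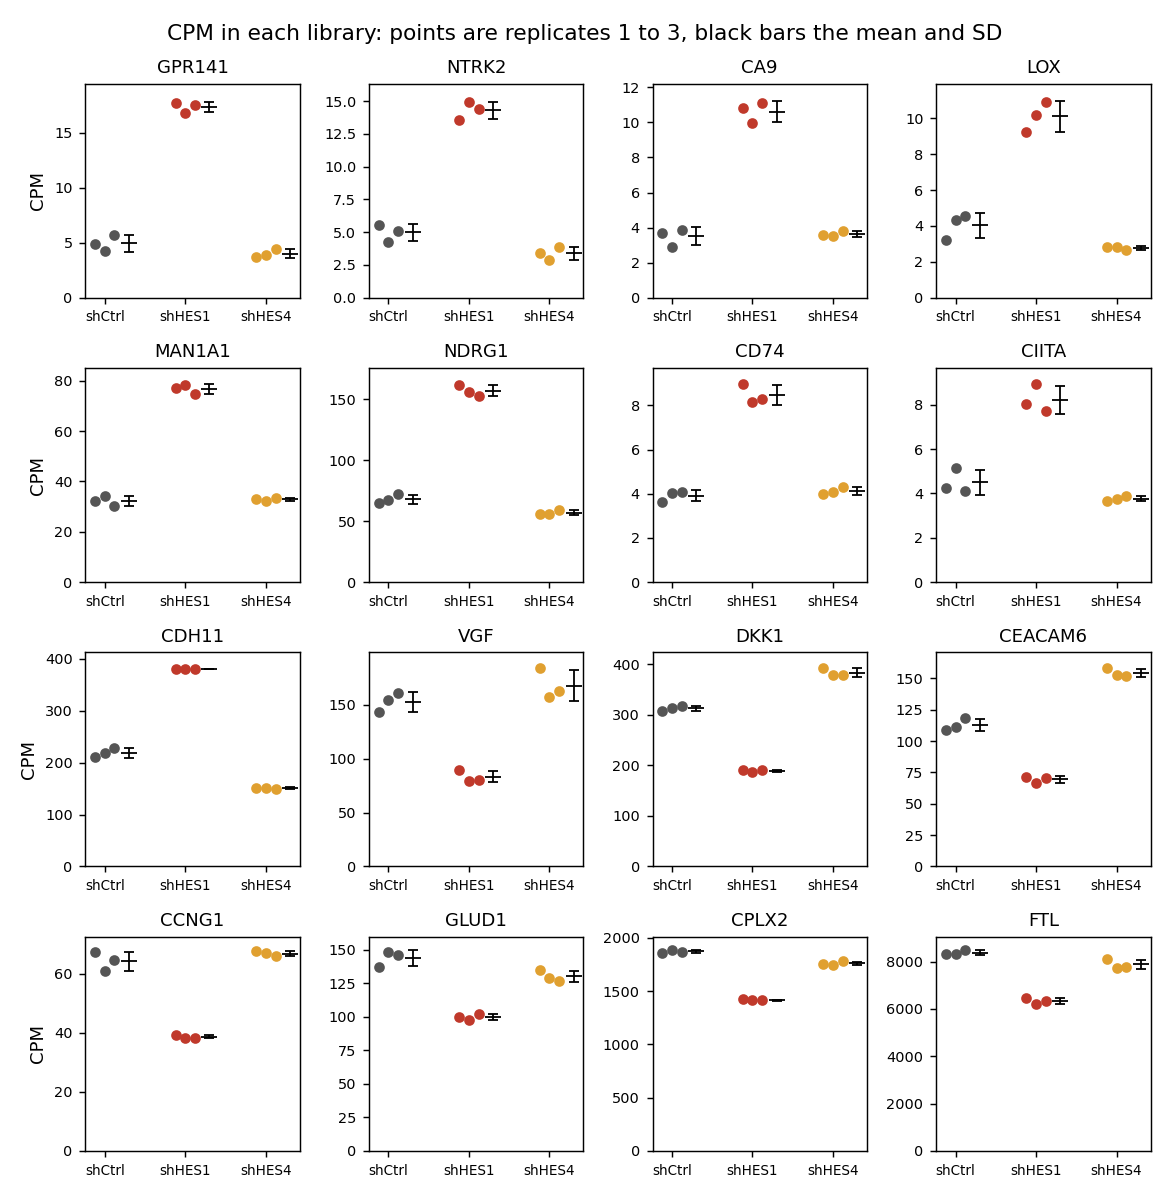
CPM (y axes, from 0) of 16 genes in each library; points are replicates 1 to 3 of shCtrl, shHES1 and shHES4 and black bars give the mean and SD. In every panel the 3 shHES1 points lie outside the range of the 3 shCtrl points, which the choice of genes required. GPR141, for example, stood at 16.8 CPM or more in shHES1 against 5.71 CPM or less in shCtrl.

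Collagen genes called in the full fit were all higher. Of 30 tested members of the collagen list, 16 were called higher and 0 lower, with a median log2 fold change of 0.244. That share, 53.3%, stands beside 5.25% of all genes. COL5A1 and COL5A2, chains of fibril-forming type V collagen, rose from 143 ± 5.73 to 211 ± 1.08 CPM and from 132 ± 0.204 to 186 ± 2.99 CPM. COL6A1 and COL6A2, chains of the microfibrillar type VI, had log2 fold changes of 0.67 ± 0.07 and 1.26 ± 0.14. Both were also above shCtrl in shHES4, though less, at 0.38 ± 0.07 and 0.69 ± 0.14, and the edgeR test separated the hairpins for both (adjusted p = 0.00527 and 0.00616). Basement membrane chains rose by less, COL4A1 by 1.12-fold, COL4A5 by 1.21-fold and COL4A6 from 121 ± 7.15 to 152 ± 1.18 CPM. COL1A1 rose from 8.39, 11.1 and 8.37 to 13.4, 13.1 and 12.9 CPM and stood lower in shHES4, at 5.97, 5.88 and 5.45 CPM. Leaving out 1 library gave 12 to 14 calls, and 11 members held in every setting. With no low count filter 1 collagen was called lower. COL4A2, COL12A1, COL15A1, COL26A1 and COL27A1 lost the call in at least 1 setting. The 9 fibroblast markers, of which COL1A1 is also in the collagen list, summed to 14.3 to 24.5 CPM in shCtrl and 22.1 to 22.5 CPM in shHES1, ranges that overlap, and COL3A1, DCN, PDGFRA and PDGFRB were under 1 CPM in all 6. The 5 fibroblast markers tested had a median log2 fold change of 0.421, above that of the collagens, with 1 called higher, 2 without shCtrl replicate 2, and 0 lower. Their part in the collagen result was not tested.

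The enzymes that modify and crosslink collagen followed, with 12 of 28 called higher and 0 lower, beside 5.25% and 4.48% of all genes. LOX, the lysyl oxidase that starts crosslinks in collagen and elastin, stood at 3.23, 4.35 and 4.54 CPM in shCtrl, 9.22, 10.2 and 10.9 CPM in shHES1 and 2.83, 2.85 and 2.66 CPM in shHES4. PXDN, peroxidasin, which links type IV collagen by sulfilimine bonds, went from 12.2, 11.8 and 11.7 to 28.4, 26.7 and 29 CPM with shHES4 at 11.5, 11.4 and 12.8 CPM. For both enzymes the shHES1 libraries were above all 6 others. LOXL2 rose from 196 ± 8.5 to 280.1 ± 3.82 CPM and P4HA3, a collagen prolyl hydroxylase subunit, from 37.7 ± 2.21 to 54.7 ± 1.34 CPM. ADAMTS14, which removes procollagen propeptides, went from 2.51 ± 0.270 to 6.67 ± 0.495 CPM.

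Proteases and glycoproteins of the matrix were more mixed, where 5.25% of all genes were higher and 4.48% lower. Of 36 tested matrix proteases and inhibitors 12 were higher and 2 lower. MMP2 (gelatinase A) rose from 2.73, 2.96 and 3.42 to 7.19, 7.63 and 7.34 CPM, MMP7 (matrilysin) from 65.9 ± 1.03 to 96.5 ± 1.75 CPM and ADAMTS9 from 17.2 ± 0.768 to 35 ± 1.89 CPM. ADAMTS1, another member of that family, fell from 3.8, 3 and 2.75 to 1.19, 1 and 0.903 CPM, and shHES4 was at 0.487, 0.877 and 0.492 CPM. Without shCtrl replicate 2 the count of higher proteases was 8. Among 46 glycoproteins 13 were higher and 8 lower. Fibronectin (FN1) rose from 577, 606 and 629 to 823, 842 and 824 CPM and tenascin C (TNC) from 15.9 ± 1.68 to 29.7 ± 0.783 CPM. LTBP1, which holds latent TGF-beta in the matrix, rose by 1.46-fold. NID2, a basement membrane linker, fell from 533, 560 and 598 to 422, 419 and 412 CPM, and SVEP1 fell from 12.3 ± 0.177 to 7.42 ± 0.225 CPM. SVEP1 stood at 6.51 ± 0.223 CPM in shHES4, and the test did not separate the hairpins (edgeR adjusted p = 0.193). In the proteoglycan and hyaluronan list 7 of 28 were higher and 3 lower. CEMIP, which depolymerises hyaluronan, rose by 2.32-fold and HAS2, a hyaluronan synthase, by 1.32-fold, while CD44, the main hyaluronan receptor, fell (log2 fold change -0.15 ± 0.03).

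**Figure D3:**
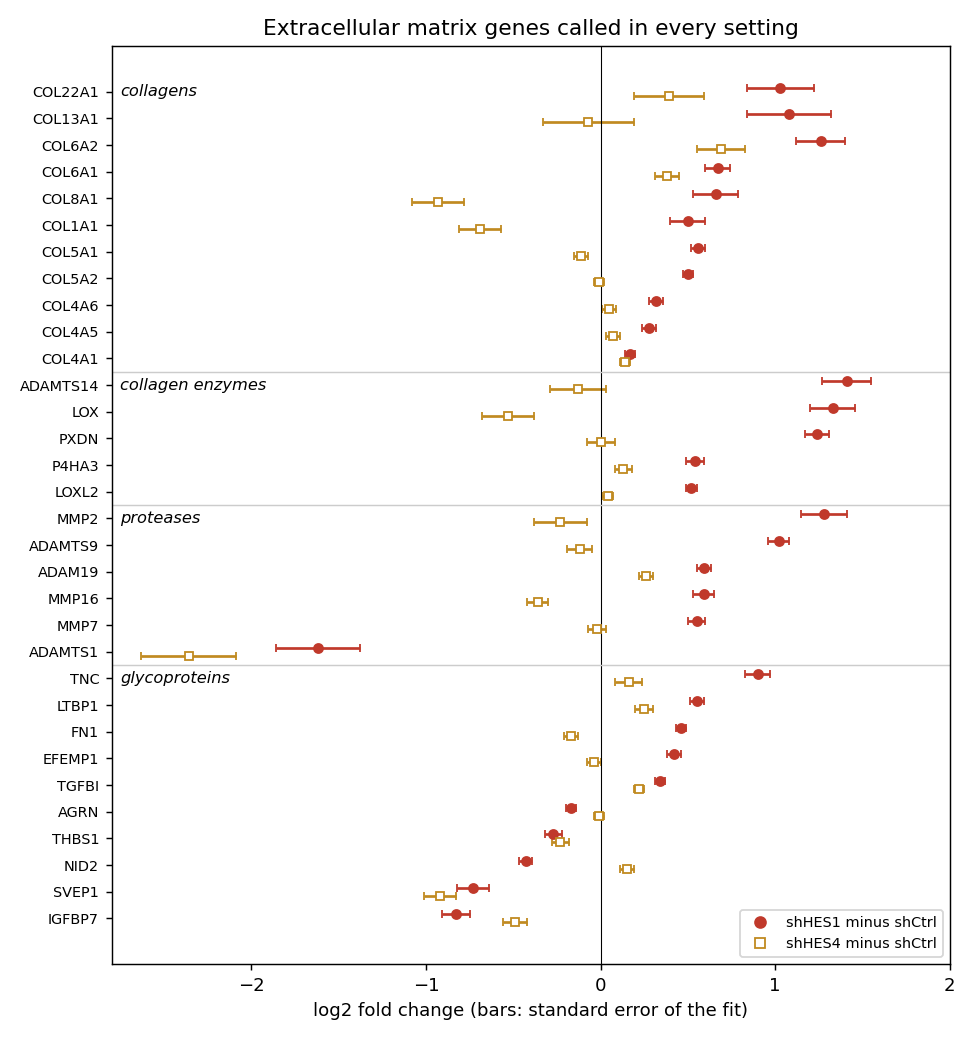
Log2 fold change against shCtrl (x axis) of extracellular matrix genes called in every setting, with bars for the standard error of the fit; filled red circles are shHES1 and open squares shHES4. Every collagen and collagen enzyme shown lies to the right of 0 in shHES1, while in shHES4 COL1A1, COL8A1 and LOX lie to the left.

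Adhesion and cytoskeletal genes went both ways, where 5.25% of all genes were higher and 4.48% lower. In the integrin and laminin list 5 of 28 were higher and 4 lower, but the higher count was 3 without shHES1 replicate 2 or 3 and the lower count 2 without shCtrl replicate 2 or shHES1 replicate 1. The list was led by ITGB3, the beta chain of the vitronectin receptor, which rose from 14.2, 16.5 and 14.5 to 31.9, 31.8 and 31.4 CPM. Its shHES4 values, 19.2, 20.5 and 22.6 CPM, lay between. LAMA3, a laminin of epithelial basement membranes, fell from 327 ± 4.15 to 268 ± 2.09 CPM. Keratins had 1 of 14 higher and 4 lower. KRT19 rose from 37.3 ± 1.67 to 61.7 ± 2.66 CPM, and the keratin pair of simple epithelia fell, KRT8 by 1.1-fold and KRT18 by 1.22-fold. Of the 8 epithelial and A549 markers 4 were lower and 1 higher, and KRT8, KRT18 and KRT19 stand in both lists. The lower ones were KRT8, KRT18 and the reductases AKR1B10 and AKR1C1, given below with the glutathione genes. The epithelial cadherin CDH1 was not called. KRT17, a keratin of basal cells, fell from 3.11, 3.46 and 2.83 to 0.831, 1.12 and 1.43 CPM. FLNA, the actin-crosslinking filamin A, fell by 1.17-fold, and 6 of 41 actin genes were higher against 6 lower. CDH2 (N-cadherin) rose by 1.35-fold. CEACAM6, an epithelial adhesion glycoprotein, fell from 109, 111 and 118 to 71.6, 66.2 and 70.8 CPM although it stood higher in shHES4, at 158, 153 and 152 CPM, and its relative CEACAM1 rose in shHES1 by 1.44-fold. Tight junction, desmosome and adherens genes had 4 of 37 higher and 5 lower, and tetraspanins 3 and 3 of 28.

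Some receptor families had more members called higher than the 5.25% of all genes. Receptor tyrosine kinases had 7 of 26 called higher and 0 lower, where 4.48% of all genes were lower. Orphan and adhesion G protein-coupled receptors had 4 of 44 higher and 3 lower. After NTRK2, NTRK3 (the neurotrophin-3 receptor) rose by 1.22-fold and AXL by 1.21-fold. NTRK3 fell in shHES4, with a log2 fold change of -0.47 ± 0.04 against shCtrl. Cytokine receptors had 7 of 39 higher and 0 lower, and 4 higher without shCtrl replicate 1. IFNGR1, the ligand-binding chain of the interferon gamma receptor, rose from 132, 134 and 132 to 185, 175 and 198 CPM, with shHES4 at 133, 136 and 129 CPM. IL1RAP, the shared chain of interleukin-1 receptors, rose by 1.38-fold. In the TNF superfamily 7 of 32 were higher and 0 lower, but only TNFSF15, TNFRSF19 and TNFRSF21 held in every setting, and the count was 3 without shHES1 replicate 1 and 4 without any other library except shCtrl replicate 3. Of 35 chemokines and interleukins 5 were higher and 3 lower. CXCL8, a neutrophil attractant, rose by 1.31-fold and CCL2, a monocyte attractant, by 1.4-fold, while IL11 fell (log2 fold change -0.41 ± 0.07). Complement genes had 6 of 26 higher and 1 lower. C3, the central complement protein, rose from 706, 719 and 741 to 985, 959.9 and 951 CPM, and CD55, which protects cells from complement, fell from 205, 207 and 209.7 to 159, 162 and 159 CPM. Neither was called in shHES4 (log2 fold changes of 0.02 ± 0.03 and 0.00 ± 0.03, edgeR adjusted p = 0.710 and 0.980).

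Growth factor carriers and Wnt regulators split by member, where 5.25% of all genes were higher and 4.48% lower. In the insulin and IGF list 6 of 27 were higher and 3 lower. IGFBP1 rose from 46.5 ± 2.08 to 68.4 ± 3.56 CPM and PAPPA, the protease that cleaves IGF binding proteins, from 337 ± 8.81 to 441 ± 13.5 CPM. IGFBP6 fell from 111 ± 9.26 to 80.9 ± 4.54 CPM and IGFBP7 from 36.4, 41.5 and 42.5 to 24.9, 20.7 and 21.9 CPM. STC1, stanniocalcin, an inhibitor of PAPPA, rose from 39.5, 42.1 and 43.4 to 91.8, 94.1 and 86 CPM. Among Wnt antagonists and feedback genes 4 of 24 were higher and 3 lower. The higher count was 7 with total-count scaling, and the lower count 5 without shCtrl replicate 1. WIF1, which binds Wnt ligands, went from 2.89, 3.25 and 3.12 to 8.21, 8.78 and 8.02 CPM with shHES4 at 1.33, 0.833 and 0.820 CPM. DKK1, which blocks the LRP coreceptors, fell from 308, 313 and 318 to 190.1, 187 and 191 CPM, while shHES4 rose to 393, 378 and 378 CPM. WNT7B, the only 1 of 22 Wnt ligand and frizzled genes called, fell by 1.44-fold. In the BMP and activin list 4 of 35 were higher and 4 lower, with 1 higher without replicate 1 of either group. BMP4 rose by 1.22-fold, and GREM1, gremlin, a BMP antagonist, fell from 17.2, 16.3 and 15.6 to 9.33, 12.3 and 10.5 CPM. EREG, an EGF receptor ligand, fell by 1.37-fold, and NRG1, a ligand of ERBB3, rose by 1.16-fold.

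Neuronal and neurosecretory genes had 9 of 29 called higher and 1 lower, beside 5.25% and 4.48% of all genes. SYT1, the calcium sensor of vesicle release, rose from 13.1, 12 and 12.4 to 27, 25 and 26.2 CPM and fell in shHES4 to 8.85, 8.9 and 8.53 CPM. SNAP25, a vesicle fusion protein, rose by 1.32-fold, CPE, which processes peptide hormones, by 1.35-fold, and the granin CHGB by 1.28-fold. The exception was VGF, a precursor of secreted peptides, which fell from 143, 155 and 161 to 89.2, 79.8 and 80.7 CPM. The median of the list was only 0.022. The 7 neuronal markers, which include the risen SYT1 and SNAP25, summed to 522 to 540.2 CPM in shCtrl and 549.5 to 567 CPM in shHES1. These ranges did not overlap, as for 27.6% of all tested genes, and the sum is not separate from the rises of SYT1 and SNAP25. GAP43 and STMN2 were under 1 CPM in all 6. What part other markers have in this group was not tested. Potassium channels had 8 of 40 higher and 1 lower, with KCNMA1 and KCNQ5 beside KCNJ6. CPLX2, complexin 2, a regulator of vesicle fusion, fell from 1862, 1891 and 1867 to 1422, 1413 and 1414 CPM. Among axon guidance genes 10 of 52 were higher and 4 lower. SEMA6B rose from 42.9 ± 3.05 to 68.2 ± 2.16 CPM, SLIT3 from 12.3 ± 1.08 to 20.6 ± 0.817 CPM and the ephrin receptor EPHB6 from 2.98 ± 0.421 to 6.61 ± 0.778 CPM, whereas EPHA2 fell by 1.16-fold and SEMA3B from 31.2 ± 1.27 to 24.9 ± 0.0537 CPM.

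Glycan-processing genes had 10 of 39 called higher and 1 lower, beside 5.25% and 4.48% of all genes. Besides MAN1A1, the sialyltransferases ST3GAL1, ST3GAL2 and ST3GAL5 rose by 1.28-fold, 1.19-fold and 1.23-fold, and FUT8, which adds the core fucose, by 1.16-fold. None of these was called higher in shHES4 by the edgeR test (adjusted p against shCtrl from 0.0173 for ST3GAL1, which was lower there, to 0.952 for ST3GAL2). FUT8 had a log2 fold change of 0.118 in shHES4 beside 0.218 in shHES1, so its rise is not shown to be particular to shHES1. Among transporters SLC2A3, a glucose carrier, rose by 1.33-fold, and SLC7A11, the cystine carrier, fell by 1.14-fold.

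Genes of MHC class II presentation were higher in shHES1, a group noticed after the values were seen. Of 16 listed genes 11 were tested, 8 were called higher and 0 lower, beside 5.25% and 4.48% of all genes, but only CD74, CIITA, HLA-DRA and HLA-DRB1 held in every setting. The count was 4 without shCtrl replicate 2 or shHES1 replicate 1. CIITA, the class II transactivator, went from 4.25, 5.15 and 4.12 to 8.02, 8.94 and 7.72 CPM and stood at 3.67, 3.73 and 3.89 CPM in shHES4. CD74, the invariant chain, went from 3.61, 4.05 and 4.08 to 8.96, 8.13 and 8.28 CPM with shHES4 at 3.98, 4.08 and 4.3 CPM. HLA-DRA had 7, 11 and 4 counts in shCtrl, 61, 39 and 54 in shHES1 and 17, 14 and 11 in shHES4. HLA-DRB1 had 2, 2 and 3 counts in shCtrl, 21, 13 and 20 in shHES1 and 3, 0 and 6 in shHES4. All 3 shHES1 libraries were above the 6 others for each of the 4 genes, though for shCtrl the naming rule required a lack of overlap. Reads of DRB genes are shared between near-identical copies, and the deposited counting could split them. The edgeR log2 differences between shHES1 and shHES4 were 1.04 ± 0.11 for CD74 and 1.13 ± 0.12 for CIITA (adjusted p = 3.49e-06 and 3.91e-06). HLA-DPA1 and HLA-DMA were called in the full fit (log2 fold changes 1.79 ± 0.44 and 0.75 ± 0.2) and lost the call in some settings, and HLA-DMB was not called (-0.24 ± 0.15). The 10 leukocyte markers, of which HLA-DRA is one, summed to 81.8 to 96.9 CPM in shCtrl and 79.8 to 83.2 CPM in shHES1, and PTPRC and LYZ were under 1 CPM in all 6. IRF1, an interferon-induced factor, was not called (-0.04 ± 0.04). HLA-B, a class I gene, rose by 1.16-fold, and B2M was not called (0.03 ± 0.03). MICB, a stress ligand of the NKG2D receptor, fell from 20.1, 18.3 and 19.2 to 13.2, 9.98 and 11.8 CPM, and MICA was not called (-0.02 ± 0.05).

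Falls included metabolic and detoxifying enzymes. In the pentose phosphate and nucleotide synthesis list 11 of 40 were lower and 1 higher, against 4.48% of all genes called lower. Falls were more frequent among abundant genes, with 22.9% lower above 500 CPM. PGD and TKT, of the pentose phosphate pathway, fell by 1.14-fold and 1.1-fold, from 1009, 1028 and 1031 to 901, 896 and 899 CPM for PGD. PRPS2 makes the ribose donor PRPP and fell from 52.3 ± 1.64 to 40 ± 1.18 CPM, PPAT, which starts purine synthesis, fell by 1.24-fold, and CAD, which starts pyrimidine synthesis, by 1.13-fold. Without shHES1 replicate 2 the count was 7. Homologous recombination and Fanconi genes had 11 of 44 lower and 0 higher, a median of -0.106, but each fall was small and none held in every setting. FANCA went from 56.6 ± 1.7 to 49.7 ± 1.76 CPM and BLM from 35.8 ± 0.707 to 30.7 ± 1.52 CPM. The count was 3 without shHES1 replicate 2, 5 without shCtrl replicate 1 or 2, and 6 without shHES1 replicate 1 or 3.

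Lipid genes fell in part. Beside the counts below, 4.48% of all genes were lower and 5.25% higher, and 10.9% were lower at 100 to 500 CPM. Fatty acid and triglyceride synthesis had 9 of 39 lower and 3 higher, and 5 lower without shHES1 replicate 3. SCD, the stearoyl-CoA desaturase, fell from 2777, 2819.9 and 2830 to 2253, 2252 and 2279 CPM, FASN by 1.15-fold, ACSL4, which activates arachidonate, by 1.28-fold, and ELOVL2, which elongates polyunsaturated fatty acids, from 7.63, 7.35 and 8.37 to 4.59, 4.05 and 5.27 CPM. SCD5, the other desaturase, rose from 9.71 ± 0.579 to 16 ± 0.598 CPM. Cholesterol genes had 5 of 32 lower and 0 higher. Among eicosanoid genes 6 of 29 were lower and 4 higher, the latter 2 without any 1 library but shCtrl replicate 3. The leukotriene hydroxylase CYP4F3 fell from 9.3, 8.45 and 7.54 to 5.17, 5.2 and 4.82 CPM and its neighbour CYP4F11 by 1.55-fold. Their sequences are alike, and reads could be split between them.

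Glutathione and aldo-keto reductase genes had 6 of 40 lower and 0 higher. GPX2, the epithelial glutathione peroxidase, fell from 70.7, 73.4 and 76.6 to 50.1, 48.9 and 45.3 CPM while shHES4 rose to 99.6, 100.3 and 92.7 CPM. AKR1B10, a reductase, fell from 1157 ± 19.6 to 926 ± 8.74 CPM and AKR1C1, which shares reads with its close relatives, by 1.22-fold. FTL, ferritin light chain, fell from 8323, 8316 and 8501 to 6462, 6212 and 6318 CPM, with shHES4 at 8105, 7746 and 7777 CPM. MT1X, a metallothionein, rose from 26.5 ± 0.926 to 44.1 ± 1.19 CPM and ceruloplasmin (CP), a copper-carrying ferroxidase, from 51.2 ± 2.03 to 78.6 ± 1.53 CPM. The lysosomal protease CTSL fell by 1.16-fold, and SQSTM1, the autophagy adaptor p62, fell from 1626 ± 22 to 1288 ± 13.3 CPM. In the mitochondrion citrate synthase (CS) fell from 323, 334 and 335 to 254, 249.8 and 252 CPM and glutamate dehydrogenase (GLUD1) from 137, 148 and 146 to 100.2, 97.7 and 102 CPM. Heat shock genes had 6 of 52 lower (11.5%) and 1 higher. Of all genes at 100 to 500 CPM 10.9% were lower, and the part of level in these shares was not tested. MUC5AC, the gel-forming airway mucin, fell from 244, 245 and 277 to 189, 189.6 and 182 CPM.

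Single falls outside these lists covered other functions. NPR1, the receptor for atrial natriuretic peptide, fell from 8.54, 7.47 and 9.67 to 4.92, 5.32 and 4.44 CPM and S100P, a calcium-binding protein of epithelia, from 8.35, 8.23 and 5.04 to 4.77, 3.51 and 4.29 CPM, with shCtrl replicate 3 near the shHES1 libraries. MARCHF4, a membrane ubiquitin ligase, fell from 15.7, 15.4 and 16 to 8.39, 8.63 and 10.1 CPM, and ASRGL1, an asparaginase, from 13.7, 12.4 and 12.8 to 7.16, 7.32 and 8.73 CPM. NUPR1, a stress-induced nuclear protein, fell by 1.6-fold and PLLP, plasmolipin, by 1.56-fold, with SYNC, GREB1L and SAMD11 at log2 fold changes of -0.62 ± 0.11, -0.68 ± 0.11 and -0.62 ± 0.07. At 100 CPM or more, GSPT1, a translation termination factor, fell from 231, 241 and 239.6 to 171, 175 and 176 CPM, UHMK1, a kinase, by 1.33-fold and the histone gene H2BC12 by 1.37-fold. H2BC12 belongs to a family of near-identical genes between which reads could be split. Below 5 CPM, SPINK1, a trypsin inhibitor, fell from 2.58, 2.36 and 1.87 to 0.687, 1.12 and 1.13 CPM and RASD1, a small GTPase, from 1.67, 1.44 and 1.75 to 0.723, 0.771 and 0.790 CPM. DOK7 and ZBTB32 had log2 fold changes of -0.78 ± 0.17 and -0.68 ± 0.14.

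Some large lists had shares of calls at or below those over all genes (5.25% higher and 4.48% lower). Proteasome genes had 0 of 44 called in either direction by the edgeR test and 0 by DESeq2, with 3 at an unadjusted p under 0.05, with 2 called lower without shCtrl replicate 3 and 1 with the GC content and length offset. Splicing regulators had 1 of 53 higher and 1 lower, from 0 to 1 higher and 0 to 2 lower with a library left out. Mitochondrial ribosomal protein genes had 2 of 75 higher and 2 lower, but 8 were lower without shCtrl replicate 3 and 0 without shHES1 replicate 1, so their count rests on which libraries are used. Counts of 3 or fewer in the other lists also moved by 1 or more members in several cases. The lung lineage and surfactant list, by contrast, had 4 of 21 higher (19.0%) and 1 lower. With a library left out its counts were 3 to 5 higher and 0 to 3 lower. Those higher included SOX2, from 10.2 ± 1.34 to 14.4 ± 0.632 CPM, and TP63, from 3.24 ± 0.408 to 5.99 ± 0.789 CPM. Of the 72 lists, leaving aside the MHC and interferon lists made after the values were seen, 68 had at least 5 tested members. In 39 of the 68 more members were called higher than lower, and in 21 more were called lower. Over the nuclear chromosomes, median log2 fold changes lay between -0.021 on chromosomes 20 and 21 and 0.027 on chromosome 18. Calls of higher genes ranged from 2.39% on chromosome 16 to 8.10% on chromosome 18 (mitochondrial genes left out).

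**Figure D4:**
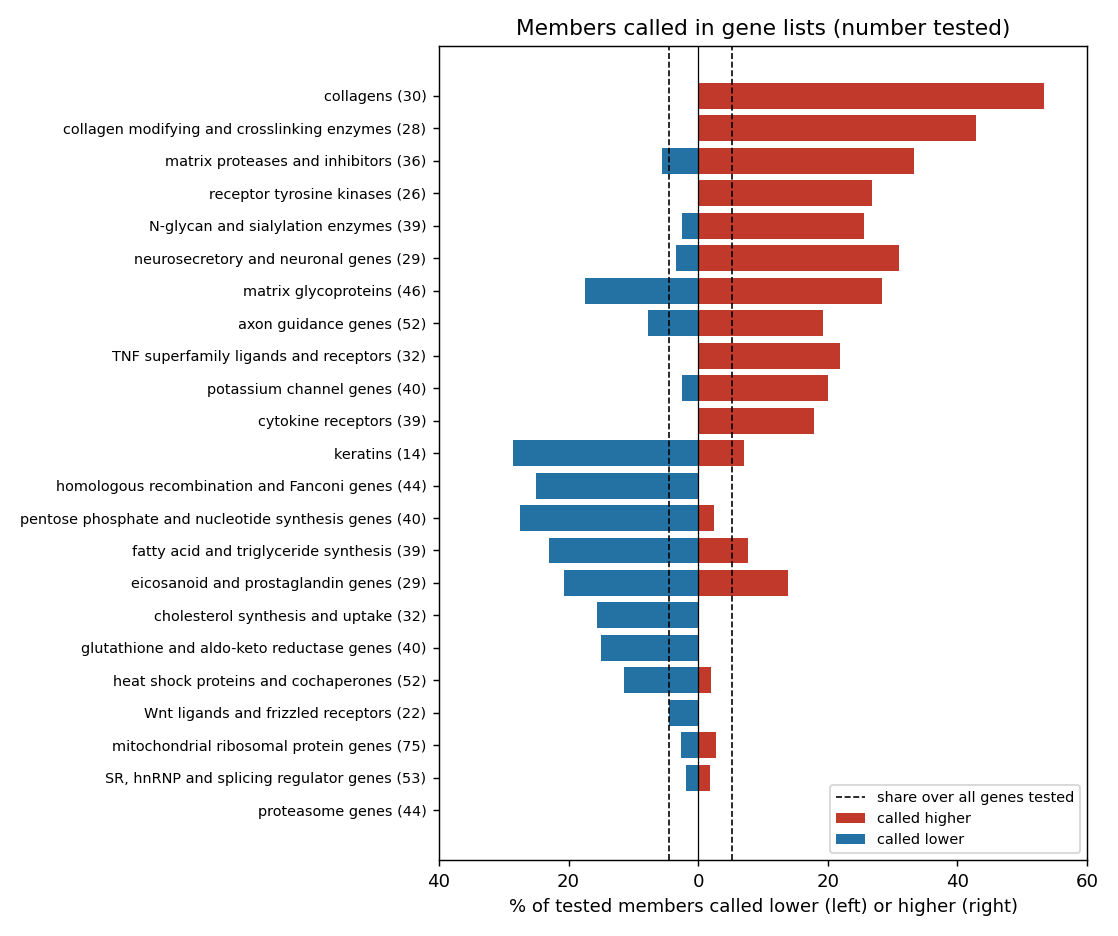
Share of the tested members (x axis, %) called higher (red, to the right) or lower (blue, to the left) in 23 gene lists, with the number tested in brackets; dashed lines mark the shares over all tested genes, 5.25% and 4.48%. Collagens reach 53.3% called higher, and the proteasome has no bar.

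Genes called lower held a short run of letters in the 3' UTR more often than other genes did, which was found by a search made after the values were seen and is a description without a test. All 7-letter runs held by at least 300 genes in the longest annotated 3' UTR were ranked by the share of holders called lower, among 10918 genes of at least 5 CPM. Small guide RNAs, from hairpins or from microRNA genes, can lower transcripts whose 3' UTR pairs with guide bases 2 to 8, the seed. The 2 runs at the top of 13396 overlapped, AAGCCTA (13.6% of 1037 holders called lower) and AGCCTAA (12.2% of 1034), beside 6.38% of all 10918 genes. The next was ACGGAGA with 11.1%.

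The joined 8 letters, AAGCCTAA, are shown in capitals in the 3' UTRs of 9 genes that fell, each within 30 bases of the transcript, 5′ to 3′, from GENCODE 29 on GRCh38. All are exonic 3' UTR sequence. They were chosen as fallen genes named in this comparison that hold the 8 letters.
PIK3AP1 (chr10:96595264-96595293, minus strand): tgccatatcagAAGCCTAAaaagaatgatc
CCNG1 (chr5:163443877-163443906, plus strand): atcaaagctaaAAGCCTAAatgtgaaatgc
ASAH2B (chr10:50756421-50756450, plus strand): taaaagttcagAAGCCTAAaagaacaagtg
FCHO2 (chr5:73089025-73089054, plus strand): tcagagtcataAAGCCTAActtaagaatcc
GREM1 (chr15:32736303-32736332, plus strand): ggctaaataaaAAGCCTAAaaggagaagct
ITPRID2 (chr2:181929771-181929800, plus strand): agcagtttgaaAAGCCTAAtatttatttgt
GLUD1 (chr10:87051139-87051168, minus strand): aatcacttaacAAGCCTAAccttgactcaa
PDXDC1 (chr16:15036578-15036607, plus strand): tttctaaacatAAGCCTAAgtatatgaggt
CPLX2 (chr5:175880295-175880324, plus strand): ggcccctcaggAAGCCTAAggtcgtgctag
The bases around the 8 letters differ from gene to gene.

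The more of the letters a gene held, the more often it was called lower. The letters were chosen by this share in the shHES1 libraries, so high shares for these groups there are not independent support. With all 8 letters, 61 of 339 genes (18.0%) were lower and 15 (4.42%) higher, beside 6.65% of all 10918 genes called higher, with a median log2 fold change of -0.038. With AAGCCTA but not the 8, 11.5% of 698 were lower. With AGCCTAA alone 8.28% of 592 were lower, with the middle 6 letters alone 6.85% of 1475, and with none of these 5.20% of 7814. Genes with the 8 letters have long 3' UTRs, with a median of 3833 bases against 1342 for genes with none. Among 3' UTRs of at least 1000 bases the shares lower were 17.8% of 315 with the 8 letters and 4.48% of 4796 with none. In shHES4 against shCtrl 3.83% of genes with the 8 letters and 3.83% of genes with none were lower. In shHES1 against shHES4, where 9.96% of these genes were lower in shHES1, 20.4% of genes with the 8 letters were. Per library, the median log2 distance of the 8-letter genes from the shCtrl mean was -0.035, -0.033 and -0.041 in shHES1. For genes with none of the letters it was -0.002, -0.009 and -0.003 in shHES1. The shCtrl libraries, at -0.003, -0.010 and 0.011 for the 8-letter genes, lie near 0 because their own mean is the reference. In shHES4 the 8-letter median was -0.039, 0.003 and -0.009, so shHES4 replicate 1 lay with the shHES1 libraries on this measure.

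For the named falls with the letters, the naming rule required shHES1 and shCtrl ranges without overlap, so their separation is not a finding. CCNG1, cyclin G1, a p53 target, fell from 67.3, 60.8 and 64.7 to 39.2, 38.3 and 38.4 CPM with shHES4 at 67.6, 66.9 and 66.1 CPM. PIK3AP1, an adaptor of PI3-kinase, fell from 13.4, 10.9 and 13 to 7.19, 6.2 and 7.64 CPM, and ASAH2B, a ceramidase-like gene, from 16.6, 15.2 and 15 to 8.49, 10.5 and 9.41 CPM. FCHO2, which starts clathrin pits, fell from 23, 24.2 and 26 to 15.7, 15.9 and 15.1 CPM, and ITPRID2 from 124, 119.7 and 121 to 83.5, 84.2 and 84.4 CPM. PDXDC1 fell from 113, 119 and 119 to 85, 85.2 and 83.1 CPM. GLUD1, CPLX2, GREM1, CS, ACSL4, PRPS2 and EREG, described above in their pathways, also hold the 8 letters. GLUD2, an intronless copy of GLUD1 with the same letters at its site, fell from 8.46 ± 0.779 to 5.52 ± 0.739 CPM, but reads could be split between the copies. Of the 343 genes with a 3' UTR that fell in every setting, 42 (12.2%) hold the 8 letters and 115 (33.5%) hold at least 7 of them, beside 3.10% and 14.9% of all such genes. Among the 395 that rose in every setting the shares were 1.52% and 13.4%. The 343 falls are among those by which the letters were chosen.

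Both HES1 transcripts of the annotation hold the first 7 letters once, in the coding sequence, and no HES4 transcript holds them. The HES1 site is shown because the hairpin is labelled for this gene, up to the exon junction.
HES1 (chr3:194136617-194136641, plus strand, coding exon): tcatcaAAGCCTAttatggagaaaa
The labels do not give the hairpin's own sequence, so whether its guide pairs with these letters was not tested. Of 2545 mature human microRNAs in the RefSeq table, hsa-miR-12116 alone has a seed that pairs with AAGCCTA, and its level was not measured in these libraries.

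**Figure D5:**
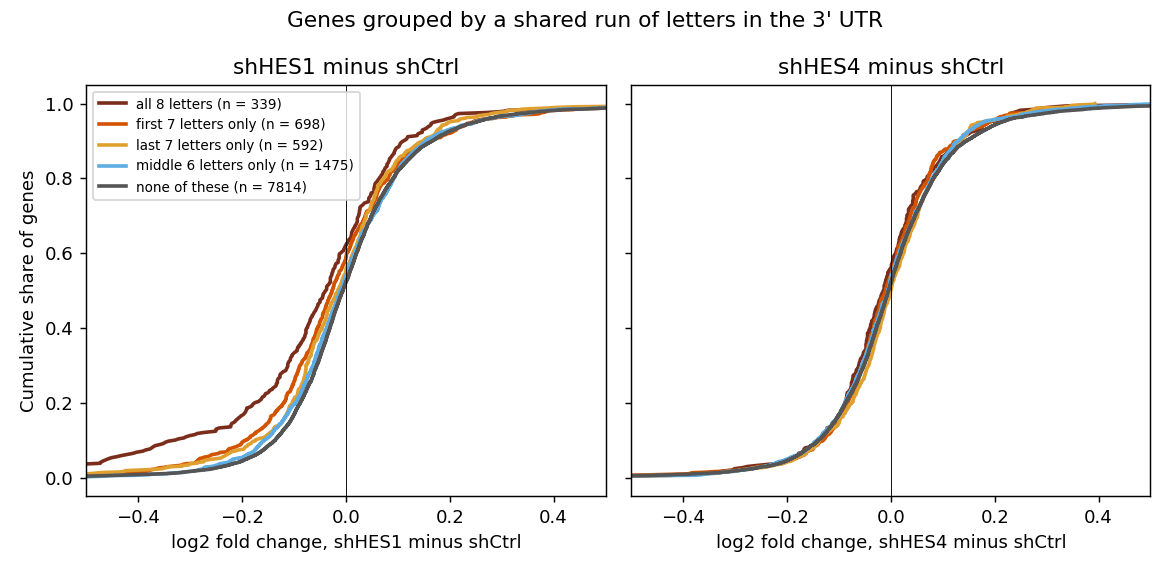
Cumulative share of genes (y axis) against log2 fold change (x axis, shown from -0.5 to 0.5) for genes of at least 5 CPM grouped by the letters of AAGCCTAA in the 3' UTR; left, shHES1 minus shCtrl, and right, shHES4 minus shCtrl. In the left panel the curve of the 339 genes with all 8 letters lies left of the curve of the 7814 genes with none, with medians of -0.038 and -0.006.

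Promoter letters known from HES and hypoxia factors differed by little in frequency between promoters of called genes and all promoters. HES1 is known to bind CACNAG (the N box) and CACGNG, and hypoxia-inducible factors bind ACGTG. In 250 bases before to 50 after the start, on either strand, CACNAG was found in 34.8% of 11916 tested promoters, 31% of those of genes called higher and 34.0% of genes called lower. CACGNG was found in 40.9%, 41.0% and 42.6%, and ACGTG, which overlaps CACGNG in part, in 26.4%, 24.9% and 24.1%. Among 144 promoters of genes higher by at least 1.5-fold ACGTG was in 27.1% and CACNAG in 28.5%. Promoters of HES1 itself and of LOX are shown, from RefSeq on GRCh38.p14, with CACNAG in capitals for HES1 and ACGTG in capitals for LOX, either strand. HES1 is shown for the elements through which it is known to repress its own gene, and LOX because it rose and its window holds several matches.
HES1 (chr3:194135898-194136197, plus strand): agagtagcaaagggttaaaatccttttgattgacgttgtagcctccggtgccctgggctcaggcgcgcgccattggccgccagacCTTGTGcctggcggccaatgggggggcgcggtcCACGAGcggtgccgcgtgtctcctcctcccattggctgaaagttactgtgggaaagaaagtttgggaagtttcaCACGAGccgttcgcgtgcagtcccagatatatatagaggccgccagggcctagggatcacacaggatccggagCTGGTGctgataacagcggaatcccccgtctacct
LOX (chr5:122078210-122078509, minus strand): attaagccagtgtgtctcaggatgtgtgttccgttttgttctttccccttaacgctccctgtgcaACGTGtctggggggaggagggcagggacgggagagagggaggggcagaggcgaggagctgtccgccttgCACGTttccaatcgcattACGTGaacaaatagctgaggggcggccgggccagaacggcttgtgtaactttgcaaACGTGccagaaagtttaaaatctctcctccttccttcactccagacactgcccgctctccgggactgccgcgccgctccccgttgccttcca
The HES1 window holds 4 matches and the LOX window 4. LOX had the most among the risen genes searched for ACGTG. CA9, PXDN and ANGPTL4 held 1 match each, and EGLN3 and MAN1A1 held 0. A match is a description of the letters, and binding was not measured here.

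Against shHES4 the edgeR test called 2546 genes (15.1%). That test uses the same shHES1 libraries by whose values the genes were named, and shCtrl enters the spread of its fit. Separation of a named gene from shHES4 is therefore not independent of the naming. Of the protein-coding genes named for their size of change, CHI3L1 and SLC6A14 among the rises and LRP11, EBPL, IRS4, CTU1, ADAMTS1, SVEP1 and GLUD2 among the falls were not separated from shHES4. LRP11 stood at 40.9, 62.1 and 66.7 CPM in shCtrl, 38.9, 24.5 and 28.8 CPM in shHES1 and 31.3, 26.2 and 22.5 CPM in shHES4. Its shCtrl replicate 1 lay within 5 CPM of the highest shHES1 library. CHI3L1, a chitinase-like lectin, had 1.03, 0.296 and 0.917 CPM in shCtrl, 1.88, 2.39 and 1.88 CPM in shHES1 and 0.885, 1.36 and 1.11 CPM in shHES4, and CTU1, a tRNA thiolation enzyme, had 8.96, 11.5 and 12.2 CPM in shCtrl, 7.99, 6.9 and 6.4 CPM in shHES1 and 8.19, 6.14 and 6.44 CPM in shHES4. EBPL, a relative of a sterol isomerase, stood at 21.5, 31.4 and 27.1 CPM in shCtrl, 19.3, 17.3 and 14.6 CPM in shHES1 and 18.7, 16.2 and 16.2 CPM in shHES4. Some genes that fell in shHES1 rose in shHES4. NOS1, neuronal nitric oxide synthase, stood at 4.56, 4.18 and 3.87 CPM in shCtrl, 1.77, 2.12 and 2.3 CPM in shHES1 and 7.12, 8.77 and 8.04 CPM in shHES4. SDS, serine dehydratase, had 1.48, 2.11 and 1.83 CPM in shCtrl, 0.759, 0.925 and 0.866 CPM in shHES1 and 3.81, 4.03 and 4.1 CPM in shHES4, and DHRS2, a short-chain dehydrogenase, had 13.1, 14.2 and 12.6 CPM in shCtrl, 8.21, 8.52 and 8.24 CPM in shHES1 and 22, 23.4 and 22.4 CPM in shHES4. For these 3 genes the shHES1 libraries were lowest, shCtrl between and shHES4 highest with no overlap.

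Noncoding genes were few among the calls. FER1L4, a pseudogene transcript, rose from 5.43, 5.57 and 4.5 to 10.1, 10.7 and 8.92 CPM, LINC03033 from 17.3 ± 1.6 to 28.5 ± 0.278 CPM and NKILA, which restrains NF-kappa-B, from 4.64 ± 0.295 to 7.18 ± 0.554 CPM. LNCAROD fell from 17, 17.7 and 18.2 to 10.8, 11.4 and 11.4 CPM and LINC00707 from 3.97 ± 0.611 to 2.48 ± 0.135 CPM. PAPPA-AS1, which lies antisense to PAPPA, rose by 1.6-fold beside PAPPA. No label says whether the counting used strand, so reads of that pair cannot be told apart.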

How the data were processed

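Total RNA of 9 A549 samples (shCtrl, shHES1 and shHES4, 3 each) was extracted with TRIzol and made into libraries with a SMARTer kit, per the labels. The authors deposited estimated counts per Ensembl gene. These were rounded, since 35.5% of the values above 0 were not whole (to within 1e-06). Neither aligner nor counter is named in the labels. The genome builds in the submitters' processing notes, GRCm38 and mm10, are of the mouse while the gene IDs are human. Names and 3' UTRs came from GENCODE 29 on GRCh38.

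All 9 libraries entered 1 edgeR 4.0.16 quasi-likelihood fit (R 4.3.3, filterByExpr, TMM, 6 residual degrees of freedom), tested on simulated data, with Benjamini-Hochberg adjustment over 16903 genes. glmTreat asked for a log2 change beyond 0.32 or for more than 1.5-fold.

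Genes were named by rank of fold among those called in every alternative (at least 5 CPM, at least 100 CPM, 1 to 5 CPM, noncoding, and members of lists). Their shHES1 and shCtrl CPM ranges also had to be without overlap. The members and lists were chosen with earlier results of these data known, and the MHC and 3' UTR groups after the values were seen. Some genes are not reported here. Alternatives were RLE and total-count scaling, other filters, a GC content and length offset, the 6 libraries alone, DESeq2 1.42.0, the replicate block and each library left out.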

Additional observations from a re-analysis of the deposited data

How the results depend on the processing

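Counts of called genes kept within 1.5 times of the full fit in every alternative except those given here. The number called and changed at least 2-fold was 110, against 208 with no low count filter and 26 when genes had to average 5 CPM. With 1 library left out the number of genes called ranged from 1084 to 1800, the number higher from 605 to 922, the number lower from 476 to 878, the number at least 2-fold from 88 to 117, the number past the glmTreat threshold of 0.32 on the log2 scale from 124 to 160, and the number of 8-letter genes called lower, 61 in the full fit, from 48 to 57. The counts over 1.5 times smaller were 1084 called and 476 lower without shHES1 replicate 2 and 499 lower without shHES1 replicate 3.

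DESeq2 called 1425 genes (741 higher, 684 lower), the 6 libraries alone 1586, RLE scaling 1646 and the GC content and length offset 1895. glmTreat was not run with DESeq2. The replicate block called 1443 genes (777 higher, 666 lower). Same-numbered libraries did not deviate together over all genes, with correlations of 0.00919, -0.00728 and 0.0143 for replicates 1, 2 and 3. No pairing was seen on this measure, which cannot tell whether same-numbered libraries share a culture. Over the genes in the text and its tables, 7240 values under alternatives stayed on their side of the threshold, 851 lost the call, 17 gained it and 0 reversed.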
